A study of Mus musculus with 26 samples.

Results

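The genes described here encode the core of the Notch signalling pathway in the mouse testis. They are the receptors Notch1, Notch2, Notch3 and Notch4, the ligands Dll1, Jag1 and Jag2, the DNA-binding factor Rbpj and the target genes Hes1 and Hey1. The 10 genes were taken by name from 24682 gene symbols, with earlier results of these data known, and all 10 were present in every count file. RNA came from C57BL/6 testes taken whole at postnatal day 21 and from sorted germ cells. In whole testis, Nkapl knockout, Sox30 knockout and Nkapl TGdel/TGdel mice (TGdel from here on) were each set beside a wild-type group of their own. Pachytene spermatocytes, which are germ cells in meiotic prophase, and round spermatids, the haploid cells that meiosis yields, came from wild-type and Nkapl knockout mice, also titled with day 21 but with no strain given. How the knockouts and the TGdel allele were made is not stated in the labels.

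Notch receptors sit in the cell membrane and are activated by Delta-like or Jagged ligands on a neighbouring cell. Ligand binding leads to cleavage of the receptor by an ADAM protease and then by gamma-secretase, and the released intracellular domain joins RBPJ in the nucleus and turns on genes such as Hes1 and Hey1, which encode transcriptional repressors. Without that domain, RBPJ holds corepressors at its targets. In the testis, Notch activity is best known in Sertoli cells, which receive Jagged signals from germ cells, and in blood vessels, where Notch4 is typical of endothelium. NKAPL, a relative of the corepressor NKAP that is made in germ cells, has been described as a repressor of Notch signalling, so the question here is how the pathway's genes differ in its absence. SOX30 is a transcription factor of late germ cells.

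The 26 files held 23 distinct libraries, 15 of testis and 8 of sorted cells. Libraries were grouped by the sample that the column heading names, which gave 3 wild-type and 2 knockout libraries in the Nkapl set, 3 and 2 in the Sox30 set, 2 wild-type and 3 TGdel libraries in the TGdel set, and 2 libraries in each of the 4 sorted groups. In 15 of the 18 testis files the heading names another sample than the file's record. For 4 libraries the record names another group: wild type 3 of the Nkapl set, wild type 3 of the Sox30 set, and wild type 2 and TGdel 3 of the TGdel set. Levels, counts, sums and correlations include these 4 libraries unless stated, and values without them follow beside the members' results and the main counts. Libraries of the Nkapl set held between 20120729 and 25514132 counts, those of the Sox30 set between 34167576 and 40010106, those of the TGdel set between 16469667 and 17822056, and the sorted libraries between 18155299 and 19569272. The labels do not say whether libraries of a sorted group came from separate animals, so p-values measure the spread between these libraries, which may be technical. Testis titles give replicate numbers and name no animals. Between replicate testis libraries, chi-square per degree of freedom against counting noise was 1.89 to 4.03 in the Nkapl set. It was 10.1 to 39.9 in the Sox30 set and 6.17 to 15.8 in the TGdel set. Counts of calls in the testis sets therefore rest on unlike replicate spread and depth.

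The level of Nkapl itself, in CPM (counts scaled to a common library size), was 74.9, 79.5 and 79.9 in wild-type testis of the Nkapl set and 60.8 and 57.8 in knockout testis, a log2 difference of -0.40 ± 0.05 (SE). In spermatids it was 88.4 and 90.3 in the wild type and 24.6 and 23.6 in the knockout. In spermatocytes Nkapl went against the label: 90.1 and 86.1 in the wild type but 126.8 and 124.6 in the libraries labelled knockout. Every direction drawn below from spermatocytes therefore rests on a label that the Nkapl level goes against. In Sox30 knockout testis Sox30 was at 44.7 and 61.5 against 77.6, 86.2 and 72.4 (adjusted p = 0.17), and in TGdel testis Nkapl was at 107.0, 117.7 and 125.7 against 101.0 and 102.9 (adjusted p = 0.328). These counts cover the whole gene, and which part each allele removes is not given, so they do not by themselves check the alleles.

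The members lie on 6 chromosomes of the mouse genome (GENCODE vM21 on GRCm38). Notch1 spans chr2:26457903-26516663 and Jag1 chr2:137081456-137116644, both on the minus strand, and Notch2 lies at chr3:98013527-98150361 on the plus strand. Notch3 lies at chr17:32120820-32166852 (minus strand), Notch4 at chr17:34564268-34588503 (plus strand) and Dll1 at chr17:15367354-15376872 (minus strand). Jag2 is at chr12:112907819-112929776 (minus strand), Rbpj at chr5:53466152-53657362 (plus strand), Hes1 at chr16:30064384-30067796 (plus strand) and Hey1 at chr3:8663359-8667256 (minus strand). The strand setting of the counting is not given. On the opposite strand Notch1 shares 1068 exon bases with 0610009E02Rik and 414 with Gm13568, Notch3 shares 488 with Gm17276, and Dll1 shares 867 with A930024N18Rik. Counts of these members are uncertain to that extent, as are those of Notch2, whose exons share 541 bases with Gm42820 on the same strand.

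RBPJ binds the core letters TGGGAA, so promoter sequence from RefSeq (GRCm38.p6) was searched for them on both strands (TTCCCA on the other). Promoter windows of 300 bases were at hand for 8 of the 10 genes, with no entry for Hes1 and Hey1. Of 32851 windows of all genes, 25.6% held TGGGAA, and 6.38% held the longer GTGGGAA, which contains it. Among the 8 members with a window, 1 held TGGGAA, Rbpj itself, with matches that begin 149 and 65 bases upstream of its listed start, and 0 held GTGGGAA. The stretches outside annotated exons are shown for Rbpj, Jag1 and Notch4, since these were called in every comparison of sorted groups below. Each reads 5′ to 3′ on the gene's strand, and capitals mark TGGGAA. Rbpj is from chr5:53590096-53590213, Jag1 from chr2:137116645-137116770 and Notch4 from chr17:34564045-34564267.
Rbpj: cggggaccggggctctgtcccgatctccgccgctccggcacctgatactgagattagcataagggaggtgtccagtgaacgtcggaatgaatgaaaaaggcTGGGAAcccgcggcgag
Jag1: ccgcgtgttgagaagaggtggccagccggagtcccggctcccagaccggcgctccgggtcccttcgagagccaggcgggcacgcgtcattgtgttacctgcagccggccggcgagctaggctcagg
Notch4: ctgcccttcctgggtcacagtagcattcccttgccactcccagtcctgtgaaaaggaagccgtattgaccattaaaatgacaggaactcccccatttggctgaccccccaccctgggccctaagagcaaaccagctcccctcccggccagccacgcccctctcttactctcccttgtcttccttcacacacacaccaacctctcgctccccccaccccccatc
A match describes letters in this window only, and its absence says nothing of binding elsewhere.

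Per length of exon, the receptors Notch2 and Notch1 led in wild-type testis of the Nkapl set. On the scale of counts per kilobase of exon, scaled to 1 common total in every library, the level of Notch2 in the Nkapl-set wild type was 49.3 ± 1.6 (SD, n = 3). Notch1 followed at 24.8 ± 1.3, Rbpj at 20.5 ± 0.99 and Jag2 at 19.9 ± 0.63. The ranges of Rbpj and Jag2 lay too close to order them by their spread. Hes1, at 11.9 ± 0.90, and Jag1, at 11.2 ± 0.95, were likewise within their spread of each other, and Hey1 was at 8.85 ± 1.4. Notch3, at 3.76 ± 0.18, and Notch4, at 3.25 ± 0.53, did not separate either, and Dll1 was lowest at 0.759 ± 0.065. Without wild type 3, Notch2 was at 49.2 and Notch1 at 24.7 on this scale, Rbpj and Jag2 were at 19.9 and 19.95, and Hey1 was at 8.08.

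Receptor levels in wild-type testis were not alike among the sets. On the same scale per length, Notch2 was at 49.3 in the Nkapl set, 42.5 in the Sox30 set and 14.9 in the TGdel set, and Notch1 at 24.8, 18.4 and 10.7. Without the libraries recorded under another group, Notch2 was at 49.2, 39.6 and 13.96 and Notch1 at 24.7, 16.5 and 10.2. Jag2 was at 19.9, 16.7 and 19.2 and Hey1 at 8.85, 8.21 and 9.21, so these did not follow the receptors. In the TGdel-set wild type Jag2 was thus the highest of the 10 genes, and Notch1 lay below Rbpj (14.8). The sets were sequenced to different depths, no test was made between them, and every genotype comparison stays within a set.

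In wild-type germ cells the order was another. Jag2, at 7.78 ± 0.27 (SD, n = 2 here and for the other sorted groups), and Hey1, at 7.27 ± 0.27, led in spermatocytes, and Hey1, at 7.28 ± 0.13, Jag1, at 5.94 ± 0.10, and Notch4, at 5.54 ± 0.45, led in spermatids. Notch1 was at 0.434 ± 0.052 in spermatocytes and 0.272 ± 0.087 in spermatids, and Notch3 at 0.0524 ± 0.046 and 0.0977 ± 0.028. For all members but Jag1 and Notch4, mean levels per length in both germ cell types were below the lowest wild-type testis group. For Hey1 the gap was small, with 8.21 in that testis group. Notch4 in spermatids was above the 2.25 to 3.25 of the wild-type testis groups. In whole testis, fewer cells of a type and less RNA per cell cannot be told apart.

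**Figure D1:**
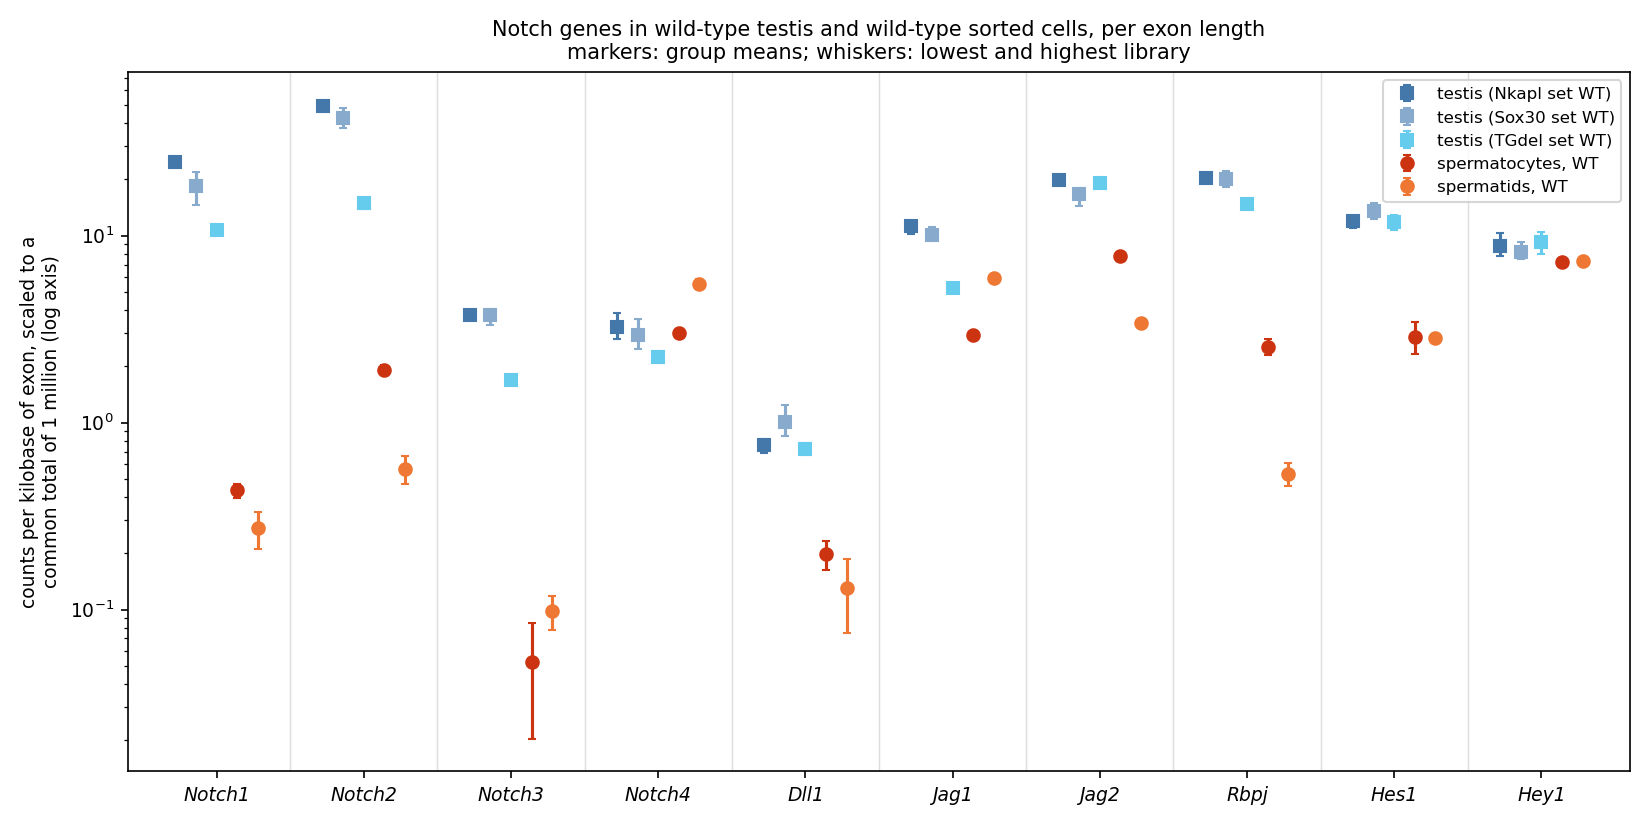
Level per exon length of the 10 Notch genes in wild-type testis (squares, 3 sets) and wild-type sorted germ cells (circles), as counts per kilobase scaled to a common total, on a log axis. Markers are group means and whiskers the lowest and highest library. Notch1, Notch2 and Rbpj are among the genes far lower in the germ cells, while Notch4, Jag1 and Hey1 in spermatids reach 5.54, 5.94 and 7.28.

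In Nkapl knockout testis, 5 of the 10 Notch genes were higher and 1 was lower. The 5 were Hes1, Notch1, Notch2, Jag1 and Rbpj, by 1.13 to 1.49 times, and Notch4 was 1.55 times lower. Of all 16937 genes tested in this set, 43.9% were called, 17.8% higher and 26.1% lower, so a count of 6 in 10 stands beside a high background. The median log2 difference of the 10 was 0.239, against 0.007 for all genes tested.

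Among the receptors, Notch1 was at 83.1, 91.1 and 87.1 CPM in the wild type and 121.1 and 114.1 in the knockout. Both knockout libraries lay above all wild-type libraries. The log2 difference was 0.43 ± 0.05 (adjusted p = 6.16e-07). Notch2 was at 128.1, 134.7 and 131.1 CPM in the wild type and 155.7 and 157.9 in the knockout, a difference of 0.26 ± 0.04 on the log2 scale (adjusted p = 3.4e-05). These receptors, the most abundant in testis, again did not overlap between genotypes.

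Notch4, the receptor best known from endothelium, went the other way. Its CPM values were 7.72, 6.19 and 5.54 in the wild type and 4.14 and 4.22 in the knockout, with no overlap, a log2 difference of -0.63 ± 0.16 (adjusted p = 0.00417). Notch3, a receptor of mural cells around vessels, was at 7.49, 7.87 and 7.15 CPM in the wild type and 8.27 and 9.27 in the knockout. Its groups did not overlap, but the difference, 0.23 ± 0.12 on the log2 scale, did not pass the test (adjusted p = 0.133).

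Of the ligands, Jag1 was at 14.8, 16.6 and 17.1 CPM in the wild type and 19.4 and 19.0 in the knockout, 0.25 ± 0.09 on the log2 scale (adjusted p = 0.0251). The groups were separate but close, and the call was lost when wild type 1 (adjusted p = 0.0676), knockout 1 (0.112) or knockout 2 (0.0962) was left out, with DESeq2 (0.103) and when all testis libraries were fitted together (0.187). Jag2, the other Jagged ligand, was at 35.7, 33.1 and 33.6 CPM against 35.4 and 32.7, and the groups overlapped. Its log2 difference of -0.01 had a 95% interval from -0.14 to 0.126. Dll1, a Delta-like ligand, rested on 16 to 26 counts a library, and its log2 difference of 0.44 ± 0.33 had an interval from -0.251 to 1.13.

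Rbpj, the factor that carries the signal to DNA, was at 64.2, 61.6 and 67.5 CPM in the wild type and 72.5 and 72.7 in the knockout. The shift was small but the groups were separate, 0.17 ± 0.05 on the log2 scale (adjusted p = 0.00834). Leaving out knockout 2 raised its adjusted p to 0.0545, and the joint fit of all testis libraries raised it to 0.0729.

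The target Hes1 had the largest rise of the 10. It was at 5.59, 6.01 and 6.39 CPM in the wild type and 8.95 and 8.97 in the knockout, a log2 difference of 0.58 ± 0.12 (adjusted p = 0.00092). Hey1, the other target, was at 6.31, 6.76 and 8.32 CPM against 7.35 and 7.52. The knockout values fell inside the wild-type range, and the log2 difference of 0.06 had an interval from -0.228 to 0.35. In all, 8 of the 10 genes did not overlap between genotypes, beside 62.4% of all genes tested. Without wild type 3 these were 9 of the 10 beside 68% of all genes.

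Without wild type 3, whose file is recorded as a knockout, the same 6 genes were called. Notch1 then differed by 0.43 ± 0.06 and Hes1 by 0.63 ± 0.14 on the log2 scale, and Notch4 by -0.73 ± 0.17. When the libraries were grouped by the record instead, 0 of the 10 and 0 genes in all were called by edgeR (415 genes at an unadjusted p under 0.05), and the 6 genes kept the sign of their differences.

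**Figure D2:**
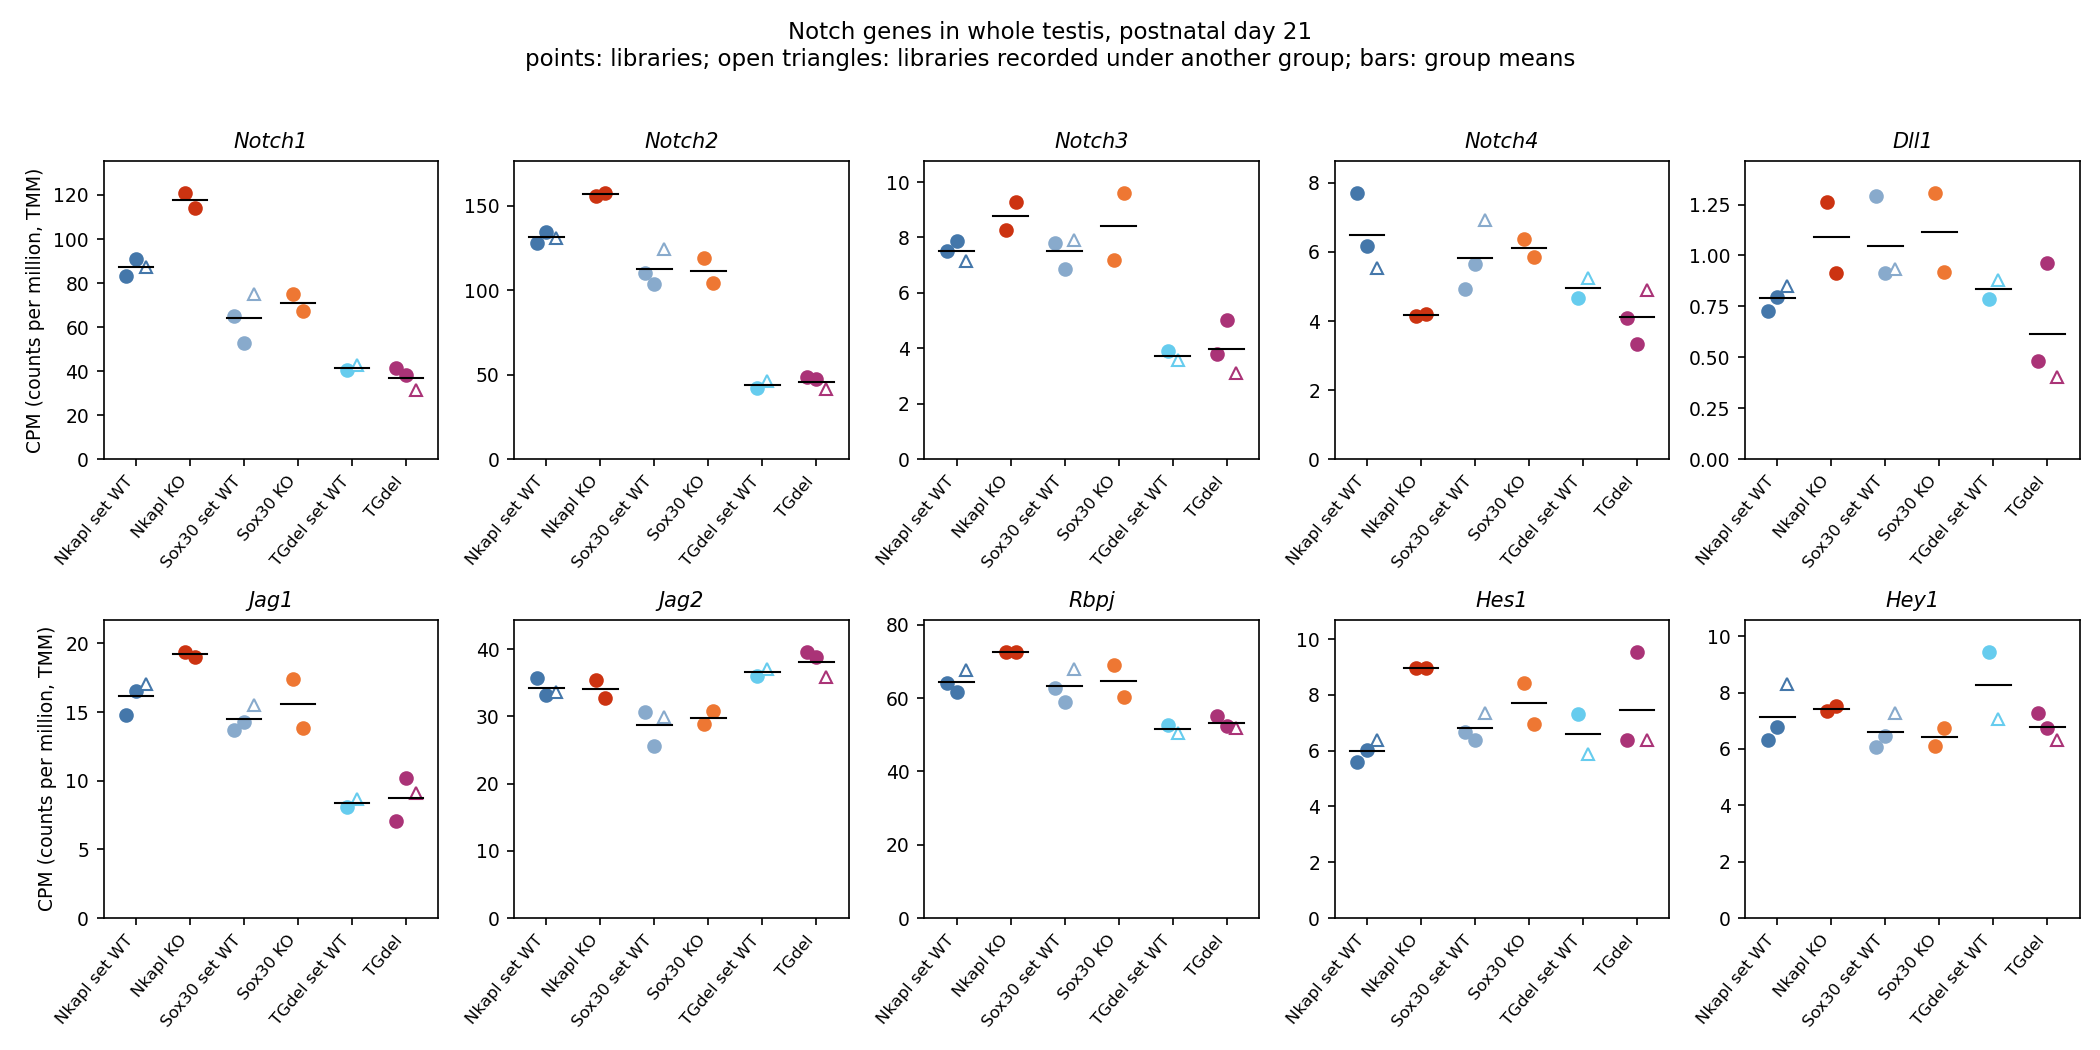
CPM of each Notch gene in the 15 testis libraries, by set and genotype, on linear axes from 0. Points are libraries, open triangles are the 4 libraries whose record names another group, and bars are group means. In Nkapl knockout testis, Hes1 sits at 8.95 and 8.97, above all 3 wild-type libraries, and Notch4 sits below them, whereas genotypes overlap for every gene in the Sox30 and TGdel sets.

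Markers of other cell types moved in the same libraries, where 17.8% of all genes tested were higher and 26.1% lower. Of 22 Sertoli cell markers, 17 were higher in Nkapl knockout testis and 0 lower, with a median log2 difference of 0.263. Their summed level was 2604 to 2721 CPM in the wild type and 3149 to 3251 in the knockout, and 0 of the 22 were at 0. The Sertoli transcription factor gene Sox9, which is also a Notch target in some tissues, differed by 0.41 ± 0.05, and the gap junction gene Gja1 by 0.37 ± 0.04. Summed spermatid markers were at 286 to 370 CPM in the wild type and 78.1 to 79.4 in the knockout, where 4 of the 16 were at 0 in both libraries. Spermatocyte markers summed to 7947 to 7989 CPM against 6766 to 6895. Of 14 spermatogonial markers, 8 were higher and 2 lower, while their sum was 1195 to 1251 CPM in the wild type and 1076 to 1109 in the knockout. The same list summed to 1762 to 1773 CPM in wild-type spermatocytes and 1945 to 1990 in wild-type spermatids. The sum therefore does not single out spermatogonia. Endothelial markers summed to at most 105.0 CPM in the wild type and to 106.9 to 108.1 in the knockout. Of these, 2 of 14 were higher and 0 lower. Per exon length Notch4 was higher in wild-type spermatids (5.54) than in wild-type testis of this set (3.25). Which cells the Notch4 level in testis comes from was not tested. Myoid and mural markers summed to 328.6 to 369.9 CPM against 388.2 to 394.5. Leydig markers, with genes called in both directions, summed to 258.6 to 295 CPM in the wild type and 226.7 to 268.7 in the knockout. Without wild type 3, 15 Sertoli markers were higher, 7 spermatogonial markers were higher and 2 lower, and 1 endothelial marker was higher. The part of these shifts in the Notch genes' differences was not tested.

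**Figure D3:**
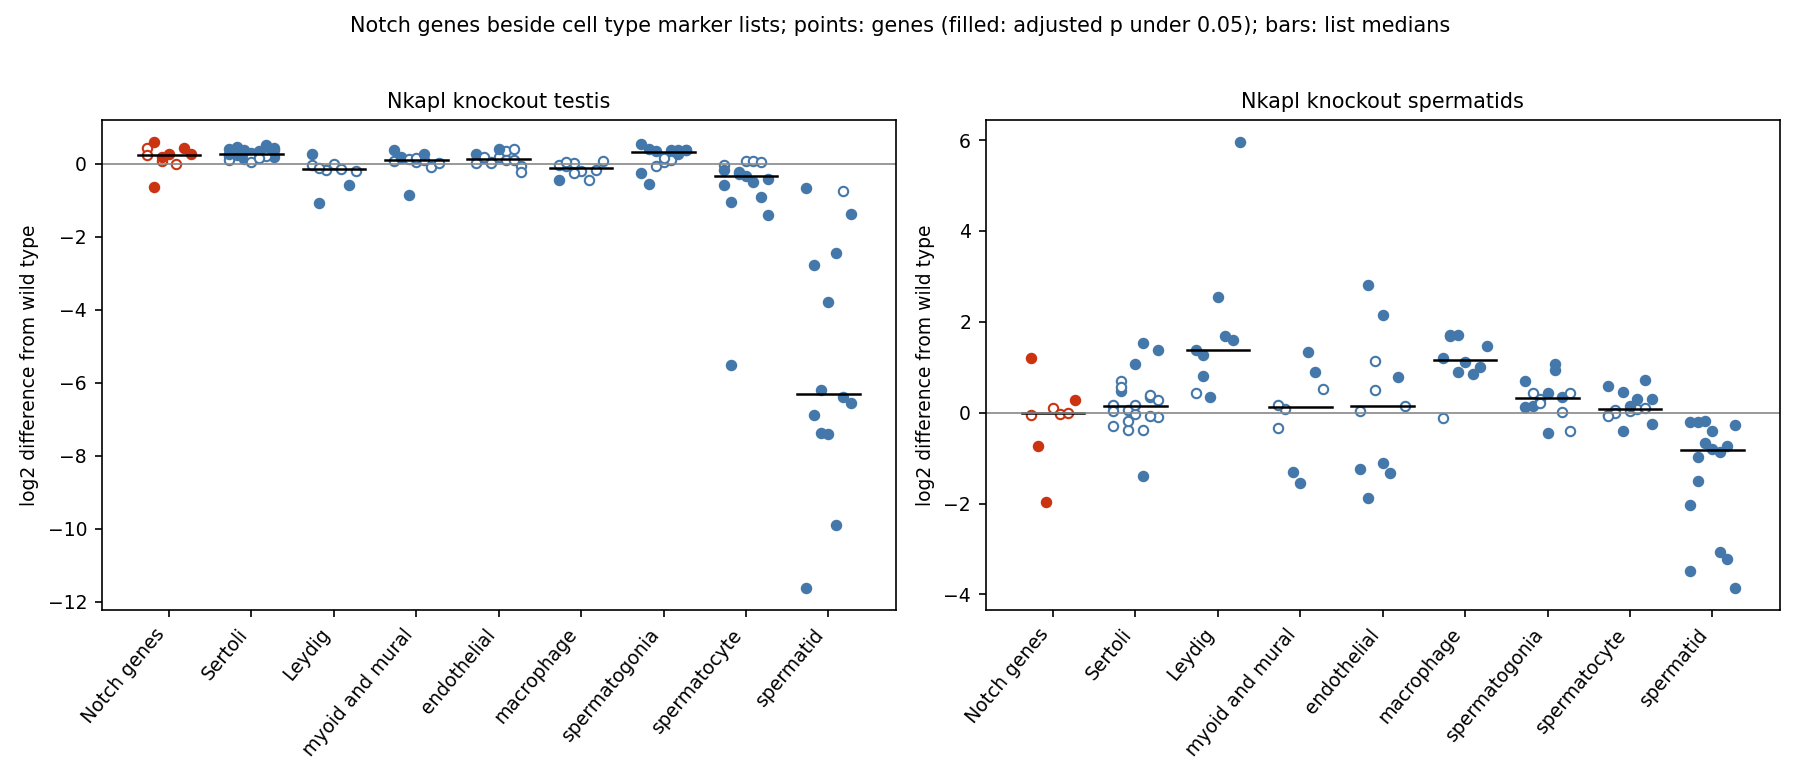
Log2 difference from wild type of the Notch genes (red) and of marker genes of 8 cell types (blue) in Nkapl knockout testis and knockout spermatids. Points are genes tested, filled where adjusted p was under 0.05, and bars are medians. In testis the Notch genes (median 0.239) lie beside the Sertoli markers (0.263); the lowest spermatid markers were at 0 in the knockout, so their fitted values depend on the fit.

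Other genes of the pathway moved both ways in Nkapl knockout testis. Of 77 further genes listed, 72 were tested, and 25 were higher and 12 lower, beside 17.8% and 26.1% of all genes tested. Without wild type 3 the counts were 19 and 11, beside 12.7% and 23% of all genes. Furin, a protease that matures the receptors, rose from 71.5 ± 1.5 (SD, n = 3) to 94.5 ± 2.3 CPM (SD, n = 2), 0.40 ± 0.04 on the log2 scale. Dlk1, a Delta-like homologue, rose by 0.70 ± 0.11. Among the genes that fell were the corepressor genes Spen, at -0.40 ± 0.04, and Cir1, at -0.59 ± 0.06. Among further target genes that are not members, 4 of 9 tested were higher and 0 lower (3 and 0 without wild type 3), beside the same 17.8% and 26.1%. Examples are Ccnd1 (0.41 ± 0.07) and Nrarp (0.39 ± 0.15), which were chosen after their values were seen. In the family of Hes and Hey genes beyond the 2 members, Heyl was higher (0.34 ± 0.14) and Hes3 lower (-1.03 ± 0.33), also named after their values were seen. Neither passed without wild type 3.

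In Sox30 knockout testis, 0 of the 10 Notch genes were called, beside 2.42% of 17816 genes (0.505% higher, 1.92% lower). At an unadjusted p under 0.05 the count was 0 too, as it was with DESeq2. The CPM of Notch1 was 64.8, 53.0 and 75.0 in the wild type and 74.9 and 67.3 in the knockout. Hes1 was at 6.68, 6.37 and 7.34 CPM against 8.44 and 6.97, a log2 difference of 0.18 ± 0.17 with an interval from -0.208 to 0.571. For each of the 10 genes the genotypes overlapped, so 0 were separate beside 21.0% of all genes. Without wild type 3, 3 of the 10 were separate beside 33.7% of all genes. Differences ran from -0.04 for Hey1 to 0.18 for Hes1 on the log2 scale. Wild-type libraries of this set were themselves spread widely, with Notch1 at 53.0 to 75.0, and leaving out wild type 3, recorded as a knockout, left 0 of the 10 called. Of 16 spermatid markers 8 fell here as well (14 without wild type 3), with sums of 238.1 to 618.9 CPM in the wild type and 68.4 to 115.9 in the knockout. Epididymis markers, of tissue beside the testis, summed to 60.7 to 98.7 CPM in the knockout and 5.53 to 7.58 in the wild type, while Sertoli markers summed to 2542 to 3143 against 2420 to 2978, with 0 of 22 called.

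In TGdel testis, also, 0 of the 10 were called, beside 1.25% of 16011 genes (0.200% higher, 1.05% lower), with 0 at an unadjusted p under 0.05 and 0 with DESeq2. Notch1 was at 40.5 and 42.7 CPM in the wild type and 41.5, 38.3 and 31.4 in TGdel. Its log2 difference of -0.17 ± 0.12 had an interval from -0.441 to 0.105. Hes1 was at 7.32 and 5.89 CPM against 6.39, 9.55 and 6.39, so 1 TGdel library stood above the rest, and the interval of its difference ran from -0.343 to 0.689. Genotypes overlapped for all 10 genes, beside 33.5% of all genes that did not overlap. With only the libraries whose heading and record name the same group, 1 wild type and 2 TGdel, 0 of the 10 were called, and 4 were separate beside 72.1% of all genes. Spermatid markers summed to 234.8 to 329.7 CPM in the wild type and 106.8 to 213.7 in TGdel, with 0 of 14 tested called (5 of 15 lower in those 3 libraries), and Sertoli markers to 4504 to 4556 and 4244 to 4714. Summed epididymis markers were at 7.33 to 59.5 CPM for the wild type and 5.41 to 33.6 for TGdel.

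The differences between these effects were tested as well. For the Nkapl effect minus the Sox30 effect, 3.84% of all genes were called (0.283% higher, 3.55% lower) and 0 of the 10. The nearest were Notch4, at -0.67 ± 0.27 (adjusted p = 0.227), and Notch2, at 0.30 ± 0.12 (adjusted p = 0.231), 2 genes at an unadjusted p under 0.05. For the Nkapl effect minus the TGdel effect, 0.295% of genes were called (0.0283% higher, 0.266% lower) and 0 of the 10, with Notch1 at 0.62 ± 0.18 (adjusted p = 0.108) as the 1 gene at an unadjusted p under 0.05. Hes1 differed by 0.43 ± 0.24 (adjusted p = 0.408) and 0.42 ± 0.25 (adjusted p = 0.382), so a difference between the effects on Hes1 was not shown.

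In the sorted cells, 8 of the 10 Notch genes had enough counts to be tested. Notch3 was at 1 to 6 counts and Dll1 at 2 to 9 counts a library, and neither passed the filter on low counts. No difference of these 2 was detectable at this depth.

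The ligands Jag1 and Jag2, the target Hey1 and the receptor Notch4 were lower in the libraries labelled knockout spermatocytes. Of 8 genes tested, these 4 were lower and 1, Rbpj, was higher, beside 59.2% of all 15805 genes called, 33.6% higher and 25.7% lower. Jag1 was at 4.71 and 4.74 CPM in the wild type and 2.14 and 2.07 in the libraries labelled knockout, a log2 difference of -1.17 ± 0.17 (adjusted p = 1.46e-06). That is 2.24 times lower, with replicates close together. Hey1 was at 6.30 and 6.78 CPM against 3.29 and 3.36, a difference of -0.98 ± 0.15 on the log2 scale (adjusted p = 1.76e-06).

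Jag2 was at 14.4 and 15.5 CPM in wild-type spermatocytes and 11.2 and 11.7 in those labelled knockout, -0.39 ± 0.10 (adjusted p = 0.00121). The remaining calls were weaker. Notch4 was at 6.39 and 6.97 CPM against 5.16 and 5.17, -0.37 ± 0.13 (adjusted p = 0.018), a call lost without wild type 2 (0.105), labelled knockout 1 (0.0762) or labelled knockout 2 (0.0758) and with DESeq2 (0.0659). Rbpj was at 9.75 and 8.15 CPM against 10.7 and 11.3, 0.30 ± 0.12 (adjusted p = 0.0297), and kept its call under 2 of 9 alternatives. Notch1, at 1.54 and 1.87 CPM against 2.40 and 2.48, did not pass (0.52 ± 0.23, adjusted p = 0.0546). Notch2, at 5.97 and 5.37 against 7.66 and 5.63, and Hes1, at 1.91 and 1.32 against 1.30 and 1.29, did not pass either.

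Nkapl knockout spermatids had the largest difference of any Notch gene. Jag1 was at 12.7 and 12.8 CPM in the wild type and 3.09 and 3.44 in the knockout, 3.89 times lower (-1.96 ± 0.14 on the log2 scale, adjusted p = 5.67e-13). It was called under every alternative tried. Hey1 was at 8.70 and 8.79 CPM against 5.04 and 5.45, -0.74 ± 0.14 (adjusted p = 2.98e-05). Rbpj moved the other way, from 2.86 and 2.14 CPM to 6.02 and 5.56, 2.31 times higher (1.21 ± 0.19, adjusted p = 1.89e-06). Counts of Rbpj were 49 and 37 in the wild type and 105 and 97 in the knockout.

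Notch4 was at 15.6 and 17.2 CPM in wild-type spermatids and 19.9 and 19.9 in the knockout, 0.28 ± 0.09 (adjusted p = 0.0118). This call was lost without wild type 1 (0.185), knockout 1 (0.0779) or knockout 2 (0.0603) and with DESeq2 (0.114). In all, 2 of the 8 genes were higher and 2 lower, beside 60.0% of genes called, 29.0% higher and 31.0% lower. Hes1, at 2.22 and 2.02 CPM against 2.41 and 1.66, overlapped between genotypes, and its interval on the log2 scale ran from -0.571 to 0.453. Notch1 (-0.02 ± 0.29) and Jag2 (0.10 ± 0.12) did not pass either, nor did Notch2, with an interval from -0.514 to 0.513.

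**Figure D4:**
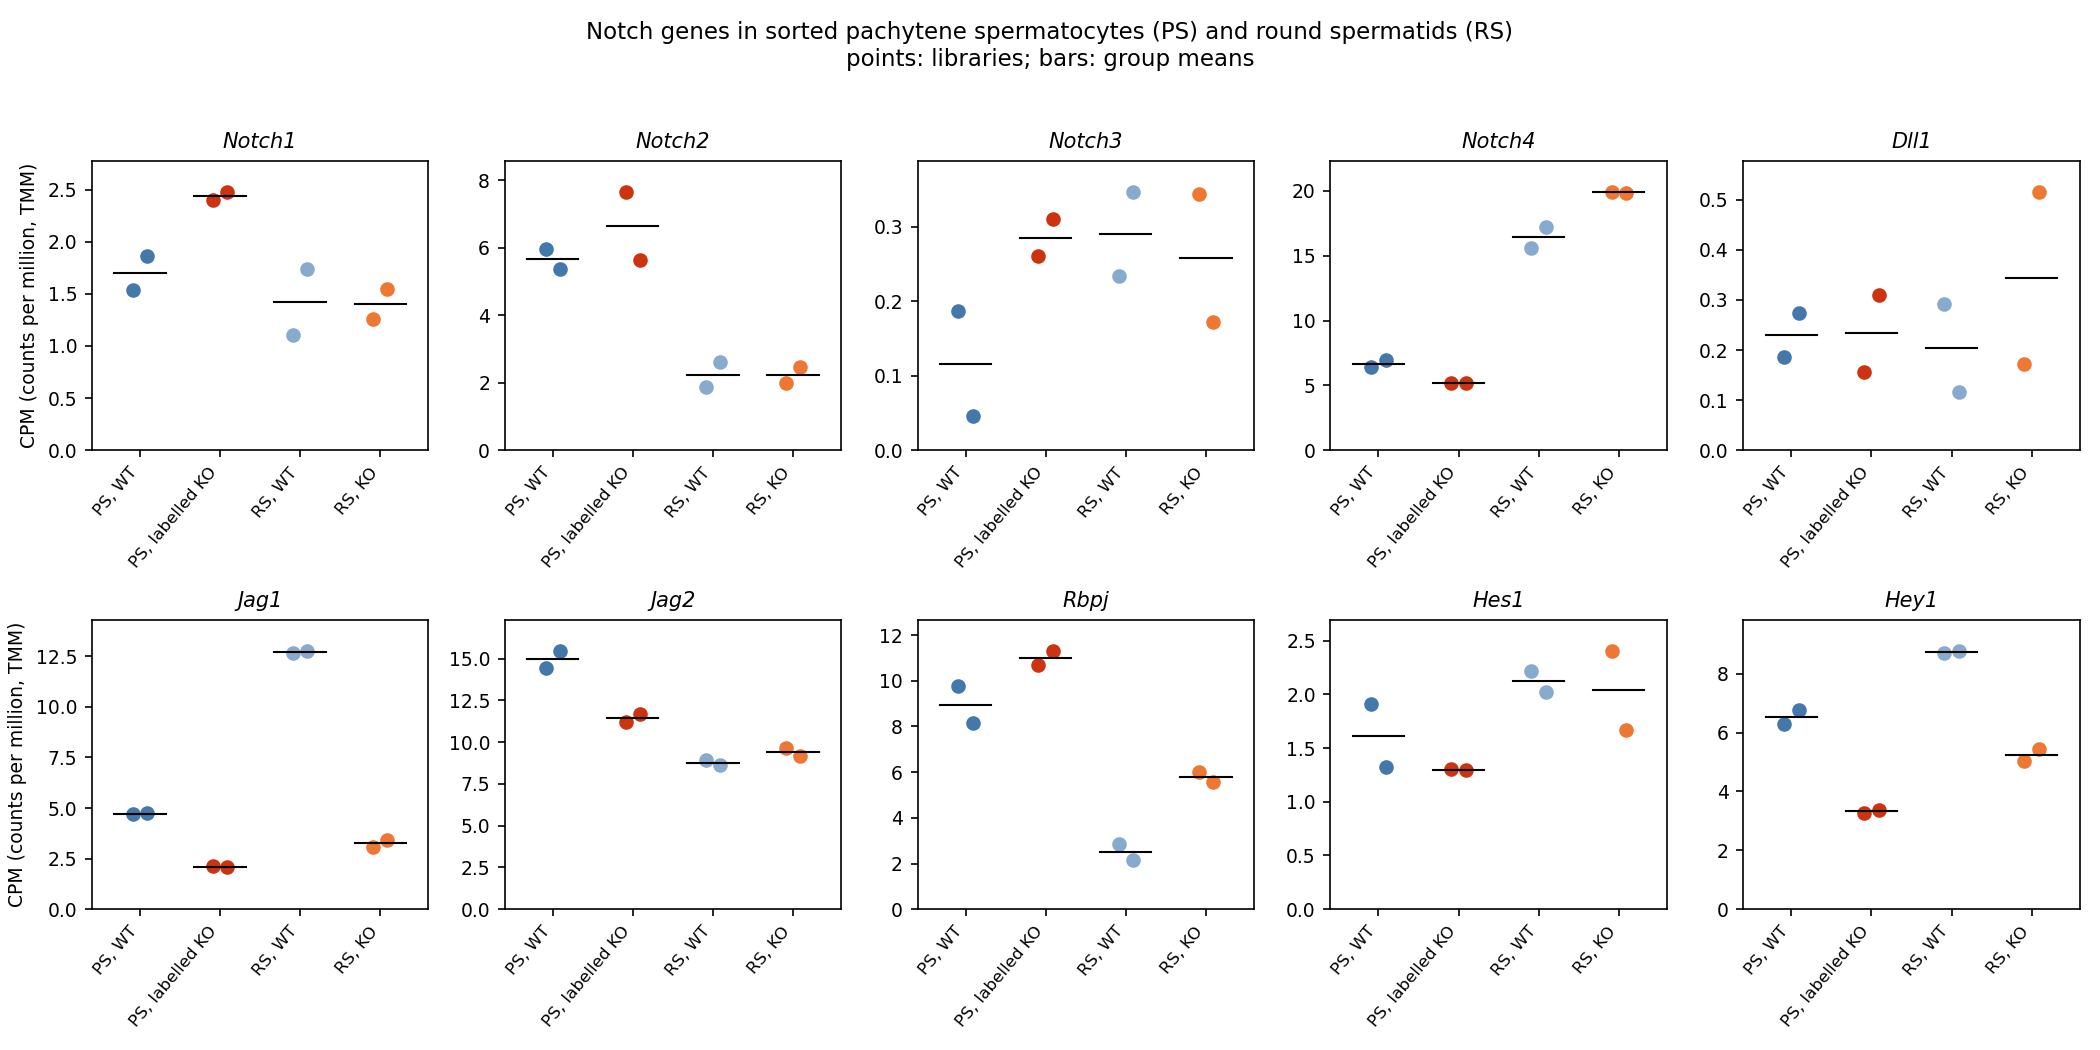
CPM of each Notch gene in the 8 libraries of sorted pachytene spermatocytes (PS) and round spermatids (RS), on linear axes from 0. Points are libraries and bars are group means. Jag1 falls from 12.7 and 12.8 to 3.09 and 3.44 in spermatids, and Hey1 is lower in both groups labelled knockout, while Rbpj is higher in knockout spermatids.

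Marker genes differed between the sorted genotypes too. The counts below stand beside 29.0% of all genes higher and 31.0% lower in knockout spermatids. In spermatocytes labelled knockout these shares were 33.6% and 25.7%. All 16 spermatid markers were lower in both groups labelled knockout, with summed levels of 3783 to 3932 CPM in wild-type spermatocytes, 1768 to 1803 in those labelled knockout, 11920 to 12450 in wild-type spermatids and 4820 to 4835 in knockout spermatids. Jag1, like this sum, was highest in wild-type spermatids and lowest in the libraries labelled knockout spermatocytes. Between these ends the orders differed. Jag1 was higher in wild-type spermatocytes than in knockout spermatids (2.94 and 1.71 per exon length), whereas the sum was lower. Spermatocyte markers were as high in spermatids (13510 to 13980 CPM in the wild type) as in spermatocytes (12390 to 12740), so this list did not separate the sorted types. Piwil1, a called gene of this list, was lower in wild-type spermatids by -3.59 ± 0.06. Its difference alone does not describe the list. Sertoli markers summed to 421 to 450 CPM in wild-type spermatocytes and 294 to 298 in those labelled knockout, with 15 of 22 lower. In spermatids they summed to 73.8 to 76.7 and 89.5 CPM, with 5 higher and 1 lower. Leydig markers were higher in knockout spermatids in 8 of 9 tested (33.9 to 34.9 against 55.0 to 57.7 CPM), and macrophage markers in 9 of 10 (at most 20.5 against 40.3 to 41.8 CPM). Endothelial markers summed to 29.7 to 30.8 CPM in wild-type and 26.0 to 26.8 in knockout spermatids. Myoid and mural markers summed to 279.6 to 286.2 CPM in wild-type and 129.3 to 130.4 in knockout spermatids, and to 106.2 to 107.5 and 50.3 to 53.1 in the spermatocyte groups. Of 8 tested, 2 were higher and 2 lower in spermatids and 1 was higher and 2 lower in spermatocytes. The lower sums of myoid and mural markers therefore do not stand for the list as a whole. Leydig markers in spermatocytes summed to 83.1 to 85.1 CPM in the wild type and 114.6 to 115.2 in those labelled knockout. Of 9 tested, 6 were higher and 1 was lower. The part of these shifts in the Notch genes' differences was not tested.

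Between cell types of the wild type, 6 of the 8 genes differed, 3 in each direction, beside 77.5% of all genes called (41.1% higher and 36.4% lower in spermatids). Jag1 was higher in spermatids than in spermatocytes by 1.43 ± 0.12 and Notch4 by 1.30 ± 0.11 on the log2 scale. Hey1 was higher by 0.42 ± 0.12, a call lost with DESeq2 (adjusted p = 0.076). Rbpj was lower by -1.84 ± 0.16, Notch2 by -1.34 ± 0.20 and Jag2 by -0.77 ± 0.11. The factor Rbpj and the receptor Notch2 were thus lower in spermatids where the ligand Jag1 was higher.

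With the groups labelled knockout, all 8 tested genes differed between cell types, 4 each way, beside 77.0% of all genes (37.7% higher, 39.3% lower). Jag1 was higher in spermatids by 0.63 ± 0.20 and Notch4 by 1.94 ± 0.11, and Rbpj was lower by -0.93 ± 0.13. Hes1 (0.65 ± 0.27, adjusted p = 0.0326), Notch1 (-0.79 ± 0.25) and Jag2 (-0.28 ± 0.11) were called here but not with DESeq2 (adjusted p = 0.151, 0.127 and 0.265). Hey1 was higher by 0.66 ± 0.16 and Notch2 lower by -1.57 ± 0.19.

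The knockout effect differed between spermatids and spermatocytes for 4 of the 8 genes, beside 25.5% of all genes (9.02% higher and 16.4% lower). Of all called genes 35.4% were higher, and 50.5% with DESeq2's size factors as the scaling. The effect on Rbpj was more positive in spermatids by 0.91 ± 0.22 (adjusted p = 0.00299) and that on Notch4 by 0.65 ± 0.16 (adjusted p = 0.00395), the last with opposite signs in the 2 cell types. For Jag1 the effect was more negative in spermatids, by -0.79 ± 0.24 (adjusted p = 0.0143). For Jag2 the difference was 0.49 ± 0.15 (adjusted p = 0.0199). The calls of Jag1 and Jag2 were lost with DESeq2 (adjusted p = 0.141 and 0.103), without labelled knockout spermatocyte 1 (0.0663 and 0.0759) and without knockout spermatid 1 (0.0849 and 0.0566). For Hey1, lower in both cell types, the effects differed by 0.24 ± 0.20, which did not pass. All 4 contrasts rest on the spermatocyte label that Nkapl goes against.

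**Figure D5:**
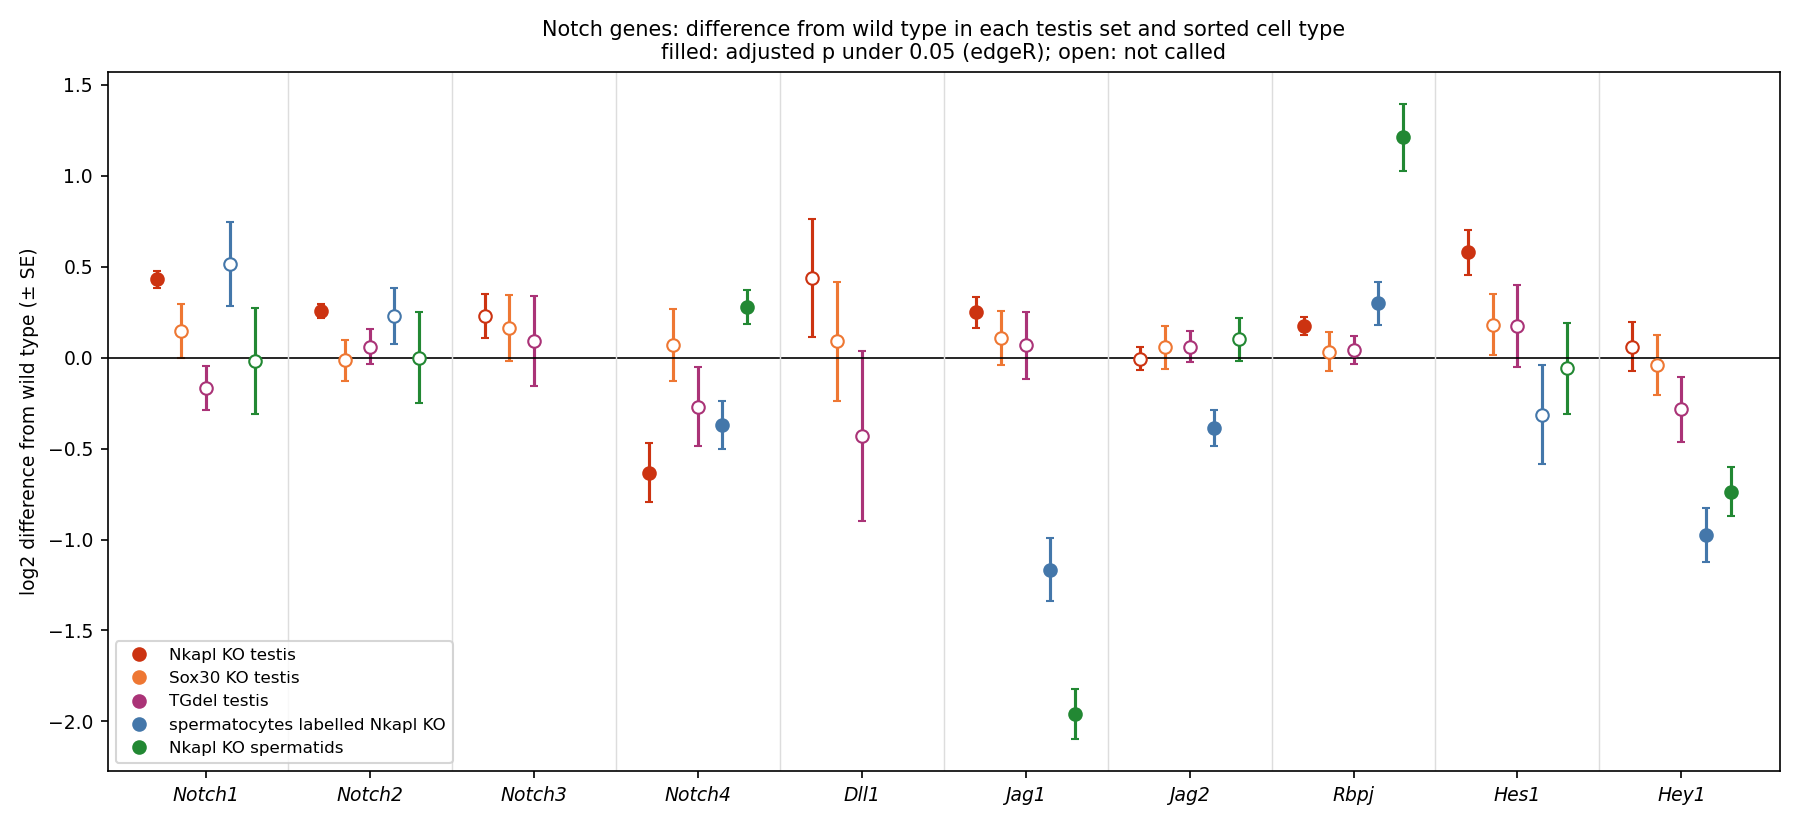
Log2 difference from wild type (points, with SE) of each Notch gene in the 3 testis sets and both sorted cell types. Filled points passed an adjusted p of 0.05 and open points did not; Notch3 and Dll1 were not tested in sorted cells. Jag1 is higher in Nkapl knockout testis (0.25) but lower in the sorted groups labelled knockout (-1.17 and -1.96), and the Hes1 point that passed the test is that of Nkapl knockout testis.

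Set side by side, the whole-testis and sorted differences of the Nkapl knockout had the same sign throughout only for Rbpj among the genes tested in both. For Notch1, Notch2 and Jag2 only the spermatid sign differed, and there they did not pass. Jag1 was at 0.25 in testis, -1.17 in spermatocytes and -1.96 in spermatids on the log2 scale. Notch4 was at -0.63, -0.37 and 0.28, while Rbpj was higher in all, at 0.17, 0.30 and 1.21. The Rbpj call held under 9 of 12 alternatives in testis and under 2 of 9 in spermatocytes. Every spermatocyte sign here, that of Rbpj included, rests on the label that the Nkapl level goes against. Hes1 was at 0.58 in testis and at -0.31 and -0.06 in the sorted cells, where it did not pass. Hey1 was at 0.06 in testis, where it did not pass, and at -0.98 and -0.74 in the sorted cells, where it was called. These come from separate fits, and the difference between testis and sorted cells was not tested.

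Of the 77 further pathway genes, 64 were tested in sorted cells. In spermatocytes labelled knockout, 24 were higher and 9 lower, beside 33.6% and 25.7% of all genes tested, so the share higher was near the background. The ubiquitin ligase gene Itch rose by 0.66 ± 0.08, the receptor-cleaving protease gene Adam17 by 0.70 ± 0.08 and Numb, an inhibitor of Notch, by 0.53 ± 0.07, all by labels that the Nkapl level goes against. Neurl1a, which encodes a ubiquitin ligase acting on ligands, fell from 6.57 ± 0.34 to 1.69 ± 0.25 CPM (-1.96 ± 0.18), the corepressor gene Tle3 fell (-0.66 ± 0.07), and so did the Delta-like gene Dll3 (-0.88 ± 0.12).

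In knockout spermatids, 17 of the 64 were higher and 13 lower, beside 29.0% and 31.0% of all genes tested. Neurl1a fell from 18.9 ± 1.6 to 4.85 ± 0.04 CPM (-1.96 ± 0.12), Tle3 from 115.1 ± 4.4 to 58.2 ± 0.85 CPM (-0.98 ± 0.06) and Neurl4, of the same family as Neurl1a, by 0.70 ± 0.05 on the log2 scale. Itch (0.47 ± 0.09), Dtx3l (0.93 ± 0.18), of the Deltex family, and the gamma-secretase subunit gene Aph1c (0.51 ± 0.11) rose. Of the 10 genes of receptor-processing proteases, 6 were higher and 0 lower in spermatids, beside the same 29.0% and 31.0% of all genes. Neurl1a was also lower in Nkapl knockout testis, by 1.33 on the log2 scale (-1.33 ± 0.25), as was Dll3 (-1.14 ± 0.13), both named there after their values were seen. In the Sox30 and TGdel sets, 0 of 74 and 0 of 72 further pathway genes were called by edgeR. The shares of all genes called there were 2.42% and 1.25%, so these counts are near the background.

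Over the 15 testis libraries, after the mean of each set was subtracted, Notch1 ran most closely with Mycn (Pearson r = 0.969 on log2 CPM), St3gal2 (0.96) and Abca2 (0.955), out of 13294 genes. Jag1 ran most closely with Cys1 (0.896), Brip1 (0.889) and Prkg1 (0.888), and Hes1 with Urgcp (0.956), Ctdsp2 (0.931) and Arhgap17 (0.92). Among the members, Notch1 and Notch2 (0.833), Notch2 and Rbpj (0.801) and Jag1 and Hes1 (0.769) ran together, and Notch4 and Hes1 ran opposite (-0.717). Over the 11 libraries whose heading and record agree in group, these pairs were at 0.788, 0.862, 0.929 and -0.72, and the 9 genes above at 0.887 to 0.97. Libraries of a set share preparation and genotype groups, so these values describe the libraries and carry no test.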

How the data were processed

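RNA of whole testis and sorted germ cells was made into stranded total RNA libraries, per the labels' protocols. The authors deposited counts of reads for each gene symbol, as whole numbers without scaling, and HISAT2 2.1.0, HTSeq, DESeq2 and mm10 stand in the submitters' processing notes. The sources used here give neither the annotation nor the strand setting. HTSeq's lines for reads of no gene (18.8% to 24.6% of the sorted files) were left out. Column headings are library codes, and each was matched to the sample whose own file carries that code. Repeated columns (3) were used once.

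Counts were tested with edgeR 4.0.16 in R 4.3.3 (filterByExpr by group, TMM scaling, quasi-likelihood F test, two-sided). Genes with a Benjamini-Hochberg adjusted p under 0.05 over all genes tested are called, and every adjusted p is from this test unless DESeq2 1.42.0 is named. Each testis set was fitted alone, the 8 sorted libraries together, and contrasts of testis effects in 1 fit of all 15. Standard errors are the log2 difference divided by the square root of F, and 95% intervals use the fit's degrees of freedom. CPM use the TMM factors of the set. Exon lengths (GENCODE vM21) were matched for 24108 of 24682 symbols. Scripts were tested on simulated counts. Alternatives were other groupings of libraries, a joint fit, DESeq2, its size factors, no filter on low counts, leaving out each library and a replicate block. Leaving out libraries in the contrasts of testis effects, and list counts, levels and correlations over agreeing libraries alone, were chosen after seeing the data.

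The members and lists were chosen with earlier results of these data known. Named are all members, Nkapl and Sox30, up to 3 called genes of the further pathway lists with the smallest p per direction and comparison, up to 2 called genes of each marker list and, for Notch1, Jag1 and Hes1, the 3 genes of highest correlation. Those correlations use log2(CPM + 0.5) and genes with a mean log2 CPM of at least 1. A member counts as overlapping where the CPM ranges of the groups cross. The result of 1 further pathway gene that the rule names is not reported here.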

Additional observations from a re-analysis of the deposited data

Results flagged for a closer look

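Among members of the Notch set, the difference between the Nkapl knockout effects in spermatids and in spermatocytes passed the test for Rbpj (0.91 on the log2 scale, adjusted p = 0.00299), Notch4 (0.65, 0.00395), Jag1 (-0.79, 0.0143) and Jag2 (0.49, 0.0199). Of further pathway genes, the same test passed for the coactivator gene Crebbp (-0.73, adjusted p = 0.000123), the Deltex family gene Dtx3 (-0.51, 3.45e-05), the deacetylase gene Hdac2 (-0.58, 0.000203), the RBPJ-binding corepressor gene Fhl1 (1.24, 0.00327) and the protease gene Furin (0.99, 0.0103). Each of these uses the spermatocyte label that the Nkapl level goes against.

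In testis, the Nkapl effect on Dll3, a Delta-like gene, was below the Sox30 effect by -1.14 on the log2 scale (adjusted p = 0.00416) and below the TGdel effect by -0.99 (adjusted p = 0.0478). The first was lost with the libraries whose heading and record agree in group (adjusted p = 0.0729) and without Nkapl knockout 2 (0.0629). The second was lost under 11 alternatives, among them DESeq2's size factors (0.0533).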

How the results depend on the processing

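No alternative reversed a called difference. Of 982 values of the members under alternatives, 933 kept their side of the threshold, 46 lost the call and 3 gained it, and of 1386 values of other named genes 1259 kept it and 127 lost it. Group levels with plain library totals moved by over 1 SD in 25 of 100 cases. With libraries grouped by the file record, 0 genes were called in the Nkapl, Sox30 and TGdel sets (415, 1202 and 187 at an unadjusted p under 0.05), and 0 members. With agreeing libraries only, the counts were 693 in the Sox30 set (432 as reported), 328 in the TGdel set (200), 94 for the Nkapl minus Sox30 contrast (677) and 0 for the Nkapl minus TGdel contrast (52). The joint fit called 3351 genes in the Nkapl set (7433), 896 in the Sox30 set and 425 in the TGdel set. DESeq2 called 777 and 580 genes in the Sox30 and TGdel sets and 2192 for the knockout effect in spermatids minus spermatocytes (4025). Of members it called 3 in spermatocytes (5), 5 between cell types labelled knockout (8) and 2 for the difference of knockout effects (4). No filter left 88 genes in the TGdel set, and DESeq2's size factors left 6 for the Nkapl minus TGdel contrast.

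Leaving out 1 library gave 20 (without Sox30 knockout 2) to 693 genes (without wild type 3) in the Sox30 set and 0 (without TGdel 2) to 504 (without TGdel 1) in the TGdel set. For the Nkapl minus Sox30 contrast it gave 79 (without Nkapl knockout 2) to 1926 (without Sox30 knockout 1), for the Nkapl minus TGdel contrast 0 to 581 (without TGdel 1), and for the difference of knockout effects 2679 (without knockout spermatid 1) to 4449. Members called ranged from 3 to 5 in spermatocytes, from 4 to 6 in Nkapl knockout testis and from 2 to 4 for the difference of knockout effects. A group left with 1 library is assumed to vary like the others. With the replicate number as a block, 1728 genes were called in the Sox30 set and 0 in the TGdel set (1686 at an unadjusted p under 0.05), and Notch1 in spermatocytes passed (adjusted p = 0.0481). In the Nkapl set the marker genes Robo4 (adjusted p = 0.12) and Adgre1 (0.0583) lost their calls with the block, which changed no other call among the genes named. Deviations of same-numbered libraries correlated at 0.117 and 0.582 in the Sox30 set, -0.27 and -0.256 in the TGdel set and between -0.013 and 0.048 elsewhere, so the numbers are not taken to pair libraries. The cause of these shifts was not tested. Counts of Dll1 and, in sorted cells, Notch3 were too few to show small differences.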
